A study of Mus musculus with 8 samples.

Results

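The genes that define the eosinophil granule and its growth factor receptor were followed in whole bone marrow (BM) of leukemic mice: Epx, Prg2, Prg3, Ear1, Ear2, Ear6 and Il5ra. They were chosen by name, for their known roles, but with earlier results of these data known. Of these 7 genes, 4 (Epx, Prg2, Prg3 and Ear2) are among the 13305 genes of the count table, and Ear1, Ear6 and Il5ra have no row among the genes analysed here.

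The libraries came from C57BL/6N mice that all carried the interferon-inducible Mx1-Cre transgene, a heterozygous loss of Dnmt3a (Dnmt3a+/-) and 2 copies of an internal tandem duplication in Flt3 (Flt3ITD/ITD), which together give acute myeloid leukemia (AML). They differed in Gab2, which encodes a docking protein downstream of cytokine and growth factor receptors: 3 mice were Gab2+/+ (AML WT), 2 were Gab2+/- (AML HET) and 3 were Gab2-/- (AML KO). The Gab2 knockout is constitutive, so every cell of the BM lacks the allele, and the study saw Dnmt3a recombination in AML mice of every Gab2 genotype although no inducer of Cre was injected. Each mouse gave 1 library, so the spread given here is that between mice, and the labels give no age. BM of mice without the Flt3 and Dnmt3a alleles was not analysed here.

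Eosinophils are granulocytes that mature in the BM under interleukin-5 and store cationic proteins in large specific granules. Major basic protein (Prg2) forms the granule core, eosinophil peroxidase (Epx) and the eosinophil-associated ribonucleases (Ear genes) lie in the matrix around it, and the interleukin-5 receptor alpha chain (Il5ra) marks cells committed to the lineage. Most granule mRNAs are made in the immature cells of the BM rather than in mature blood eosinophils. Prg2 is also known from basophils, and Ear2 from monocytes and macrophages, so neither is limited to eosinophils.

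In GENCODE M21 (GRCm38), Epx (ENSMUSG00000052234) lies at chr11:87864000-87875536 on the minus strand, close to the genes of the related peroxidases Lpo and Mpo. Prg2 (ENSMUSG00000027073, chr2:84980461-84983632) and Prg3 (ENSMUSG00000027072, chr2:84988215-84993886) lie side by side on the plus strand of chromosome 2, separated by 4.583 kb. Ear2 (ENSMUSG00000072596) lies at chr14:44102654-44103534 on the plus strand within the Ear cluster of chromosome 14, where the annotated gene Gm49101 overlaps it on the other strand. Whether the counting used strand is not given in the sources used here, so reads of these overlapping genes may not be separated.

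The Ear genes are recent copies of each other, which bears on what an Ear2 count means. The coding sequence of Ear2 is identical to that of Ear10 at 454 of 468 aligned bases (97.0%) and to those of Ear1 and Ear6 at 95.9% and 88.4%. Of the 50-base stretches of the Ear2 transcript, 41.5% (278 of 670) also occur in transcripts of other genes, above all Ear10 and Ear1, and 13.9% (86 of 620) of the 100-base stretches do. Epx, Prg2 and Prg3 share none of their 50-base stretches with another gene. The longest coding stretch that Ear2 and Ear10 share, 185 bases in exon 2 of 2 of Ear2 (chr14:44102975-44103159, plus strand, GRCm38), is shown because a read that falls inside it cannot be given to either gene.
Ear2 and Ear10: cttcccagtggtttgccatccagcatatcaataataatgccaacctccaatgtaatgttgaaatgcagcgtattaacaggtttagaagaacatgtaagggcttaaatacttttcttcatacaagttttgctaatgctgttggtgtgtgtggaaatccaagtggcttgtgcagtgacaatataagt
Neither Ear10 nor Ear1 has a row among the genes analysed here, so the counts of Ear2 are uncertain to the extent that such reads were kept or dropped.

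The sequences of 250 bases before the annotated start of Epx, Prg3 and Ear2 are shown because the levels of these genes moved together (Epx and Prg3) or in opposite directions (Epx and Ear2) between the genotypes. They were taken from RefSeq (GRCm38.p6), in which 6 of the 7 genes were matched (Prg2 was not). Capitals mark matches, on either strand, to 3 motifs of factors known in eosinophil development: AGATAA for GATA factors, TTNCNNAA for C/EBP factors and GAGGAA for PU.1. The Epx window is chr11:87875537-87875786 (minus strand), the Prg3 window chr2:84987965-84988214 (plus strand) and the Ear2 window chr14:44102404-44102653 (plus strand).
Epx: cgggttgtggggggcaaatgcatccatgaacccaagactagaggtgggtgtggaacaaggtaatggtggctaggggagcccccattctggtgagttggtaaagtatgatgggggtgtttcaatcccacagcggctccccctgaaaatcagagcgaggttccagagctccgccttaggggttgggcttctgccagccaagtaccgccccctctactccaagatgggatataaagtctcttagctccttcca
Prg3: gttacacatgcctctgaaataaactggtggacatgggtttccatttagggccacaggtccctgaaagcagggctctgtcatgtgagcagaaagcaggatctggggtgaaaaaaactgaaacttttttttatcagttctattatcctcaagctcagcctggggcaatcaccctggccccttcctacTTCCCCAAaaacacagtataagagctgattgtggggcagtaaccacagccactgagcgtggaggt
Ear2: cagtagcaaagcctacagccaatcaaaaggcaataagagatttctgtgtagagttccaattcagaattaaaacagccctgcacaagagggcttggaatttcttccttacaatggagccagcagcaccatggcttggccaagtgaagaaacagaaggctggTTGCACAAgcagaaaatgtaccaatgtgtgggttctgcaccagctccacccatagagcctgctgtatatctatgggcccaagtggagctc
The Epx window holds no match to any of the 3 motifs. The Prg3 window holds 1 C/EBP match, which starts at position -65 from the gene start, and the Ear2 window holds 1 at -90. The windows of Ear1 and Ear6 also hold 1 C/EBP match each, at -92 and -112, and that of Il5ra holds 1 GATA match at -74. These positions count from the RefSeq starts, which for Ear1 and Ear6 differ from those of GENCODE M21. There the Ear1 window lies inside the gene and the Ear6 window runs past the gene start. Of 32851 promoter windows of the same length, 36.8% hold a C/EBP match, 9.99% a GATA match and 23.3% a PU.1 match, so a single match is common. A match here is a run of letters and not a measured binding site, and the absence of one says only that these letters are not in this window.

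Per library, 28009258 to 39266815 reads were counted on genes, so that 1 count equals 0.0246 to 0.0364 CPM (library-scaled counts, with the TMM factors of edgeR). Gab2, the targeted gene, was at 93.9, 68.5 and 61.6 CPM in AML WT, 55.8 and 50.8 CPM in AML HET and 34.96, 47.2 and 40.2 CPM in AML KO mice, so the 3 groups did not overlap and followed the labels. In the knockout allele some of the exons are replaced, and counts per gene do not show where the remaining reads lie. Siglecf, a surface lectin by which mouse eosinophils are recognised, was present at 7.70 ± 1.5 CPM (SD, n = 3) in BM of AML WT mice, at 7.61 ± 0.195 (SD, n = 2) with 1 allele lost and at 8.71 ± 1.09 (SD, n = 3) with both lost, but it is also found on some macrophages. Ccr3, the eotaxin receptor, has no row among the genes analysed here, as is the case for Il5ra. The eosinophil label therefore comes from the known roles of the chosen genes. Siglecf did not show the differences of Epx, Prg2 and Ear2 that are given below. Whether the reads of the granule genes come from eosinophils was not tested.

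The granule genes did not all lie on the same side of their AML WT level after Gab2 loss. Epx and Prg2 rose 9.35-fold and 9.08-fold from the AML WT to the AML KO mean (edgeR quasi-likelihood test, Benjamini-Hochberg adjusted p = 0.0247 and 0.00698). Prg3 was 2.43-fold higher and Ear2 was at 0.520 of its AML WT level, and neither passed the threshold (adjusted p = 0.128 and 0.0707). In all 4 genes there was no overlap between the 3 AML KO and the 3 AML WT mice, which was so for 22.1% of all genes, and the mean of the AML HET mice lay between the means of the other groups, which was so for 53.3%. In whole BM, fewer cells of a type and less RNA per cell cannot be told apart.

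**Figure D1:**
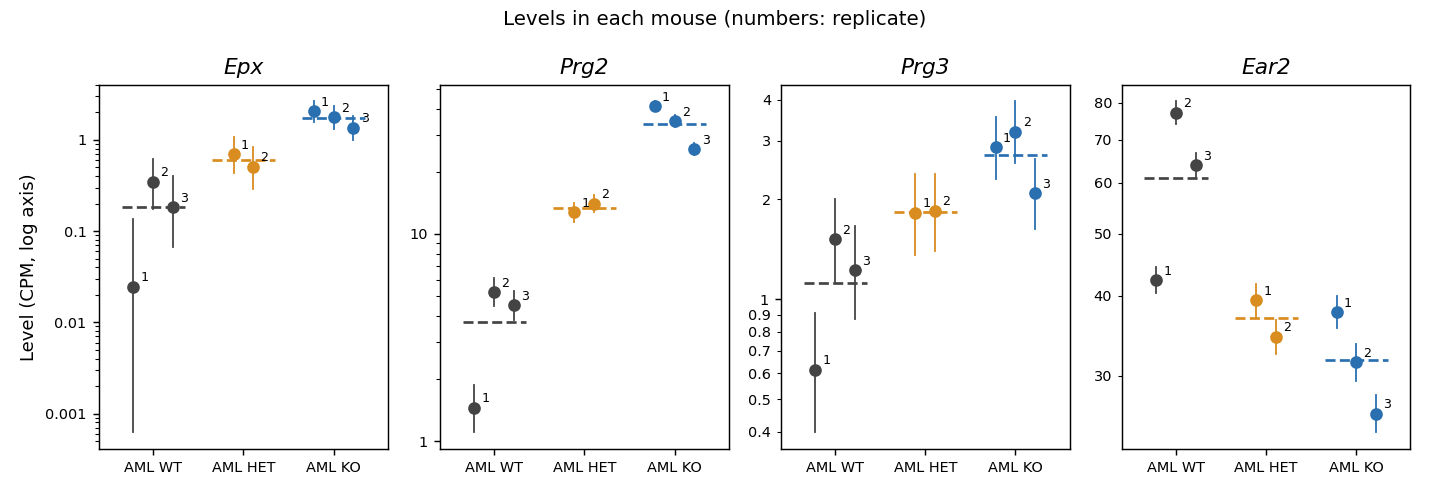
Level of Epx, Prg2, Prg3 and Ear2 in each of the 8 mice, in CPM on a log axis that differs between panels; numbers are the replicate, vertical lines the exact 95% Poisson interval of that library's count, and dashed lines the group means. Epx, Prg2 and Prg3 were lowest in AML WT and highest in AML KO mice, Ear2 was highest in AML WT, and AML WT replicate 1 was the lowest AML WT mouse in every panel.

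Epx, the peroxidase of the granule matrix, had the fewest counts. The 3 AML WT libraries held 1, 11 and 6 counts, those of AML HET 20 and 16 and those of AML KO 63, 49 and 46. On the CPM scale these are 0.0246, 0.348 and 0.184 in AML WT, 0.701 and 0.510 in AML HET and 2.06, 1.78 and 1.36 in AML KO BM. Every AML HET mouse was thus above every AML WT mouse and below every AML KO mouse. The group means were 0.185 ± 0.162 (SD, n = 3), 0.606 ± 0.135 (SD, n = 2) and 1.73 ± 0.355 CPM (SD, n = 3). The single count of AML WT replicate 1 has an exact 95% Poisson interval of 0.000622 to 0.137 CPM, which lies below the measured levels of the other 7 mice. It overlaps the interval of AML WT replicate 3 (0.0674 to 0.400 CPM), and such intervals cover counting error only. The fitted log2 fold change from AML WT to AML KO was 3.26 (standard error 0.601, 95% interval 1.91 to 4.61).

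Prg2 encodes major basic protein, the main protein of the granule core. It had 1.45, 5.25 and 4.53 CPM in AML WT mice (59, 166 and 148 counts), 12.8 and 13.99 CPM in AML HET mice (364 and 439 counts) and 41.2, 35.1 and 25.6 CPM in AML KO mice (1261, 964 and 870 counts). The 3 groups did not overlap, and the lowest AML KO mouse was well above the highest AML HET mouse. The means were 3.74 ± 2.02 (SD, n = 3), 13.4 ± 0.868 (SD, n = 2) and 33.99 ± 7.86 CPM (SD, n = 3), a ratio of 9.08 between AML KO and AML WT and of 3.57 between AML HET and AML WT. Its fitted log2 fold change from AML WT to AML KO was 3.19 (with standard error 0.406, 95% interval 2.28 to 4.10), and an adjusted p under 0.05 was kept in all 8 fits that left out 1 mouse (0.0033 to 0.0315).

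Prg3, the second major basic protein gene and the neighbour of Prg2, differed less. Its levels were 0.615, 1.52 and 1.22 CPM in AML WT, 1.82 and 1.85 CPM in AML HET and 2.88, 3.20 and 2.09 CPM in AML KO mice, from 25 to 88 counts per library. The groups did not overlap, but AML KO replicate 3 lay close to the AML HET mice. The means were 1.12 ± 0.461 (SD, n = 3), 1.84 ± 0.0177 (SD, n = 2) and 2.72 ± 0.571 CPM (SD, n = 3), and the fitted log2 fold change of 1.29 from AML WT to AML KO (standard error 0.361, 95% interval 0.48 to 2.10) did not pass the threshold.

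The ratio of Prg2 to Prg3 counts within a library does not depend on its depth. This ratio, chosen after the values were seen, was 2.36, 3.46 and 3.70 in AML WT, 7.0 and 7.57 in AML HET and 14.3, 10.95 and 12.3 in AML KO mice. The 3 groups did not overlap, and AML KO exceeded AML WT by 2.00 on the log2 scale (two-sided exact permutation test, p = 0.1, the lowest value this permutation test can give for 3 mice per group). Prg2 thus differed by a larger factor than Prg3 between every AML KO and every AML WT mouse. The ratio of Prg2 to Epx counts was 59.0, 15.1 and 24.7 in AML WT, 18.2 and 27.4 in AML HET and 20.0, 19.7 and 18.9 in AML KO mice, so the groups overlapped (exact permutation test, two-sided p = 0.6 between AML KO and AML WT). The highest of these values is that of AML WT replicate 1, which rests on 1 count of Epx.

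**Figure D2:**
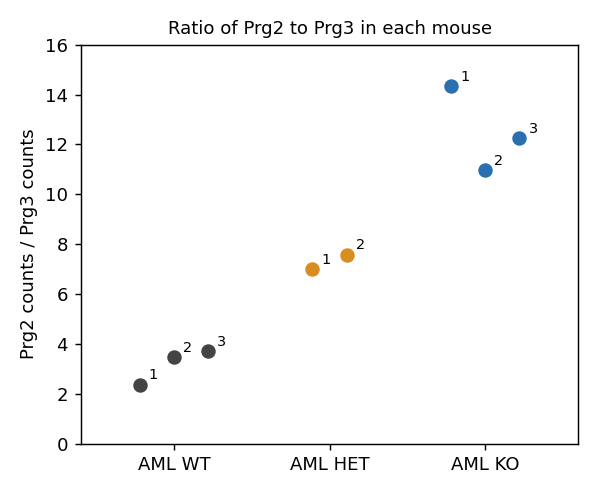
Ratio of Prg2 counts to Prg3 counts in each mouse, by group, on a linear axis from 0; numbers are the replicate. AML WT mice lay between 2.36 and 3.70, AML HET mice at 7.0 and 7.57 and AML KO mice between 10.95 and 14.3.

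Ear2, a ribonuclease of the Ear family, went the other way. It had 42.3, 77.3 and 63.9 CPM in AML WT mice (1721, 2444 and 2087 counts), 39.4 and 34.5 CPM in AML HET mice (1124 and 1084 counts) and 37.7, 31.5 and 26.2 CPM in AML KO mice (1154, 866 and 889 counts). All AML HET and AML KO mice were below the lowest AML WT mouse, while AML HET and AML KO mice overlapped. The means were 61.2 ± 17.6 (SD, n = 3), 36.97 ± 3.44 (SD, n = 2) and 31.8 ± 5.78 CPM (SD, n = 3). The fitted log2 fold change of -0.94 from AML WT to AML KO (standard error 0.222, 95% interval -1.44 to -0.44) did not pass the threshold with all mice, but did without AML WT replicate 1 (-1.16, adjusted p = 0.0204), the AML WT mouse with the lowest Ear2 level. The adjusted p reached 0.243 without AML KO replicate 3.

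With both alleles lost, 2 of the 4 genes thus passed an adjusted p of 0.05, both higher in AML KO, against 2.09% of all genes in either direction and 1.77% higher. At an unadjusted p under 0.05 all 4 genes are included, against 17.7% of all genes. The median log2 fold change of the 4 genes was 2.24, and that of all genes was -0.02. For Epx the result depended on single mice: it kept an adjusted p under 0.05 only without AML WT replicate 1 (0.0357) or AML KO replicate 2 (0.0408), and without any one of the other 6 mice the adjusted p was 0.0517 to 0.0683. Over these 8 fits its log2 fold change was 2.68 (without AML WT replicate 1) to 4.09 (without AML WT replicate 2). With DESeq2 in place of edgeR all 4 genes passed, Prg3 with an adjusted p of 0.0278 and Ear2 with 0.00286, and with AML WT and AML KO mice alone only Prg2 did (Epx, adjusted p = 0.0509).

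**Figure D3:**
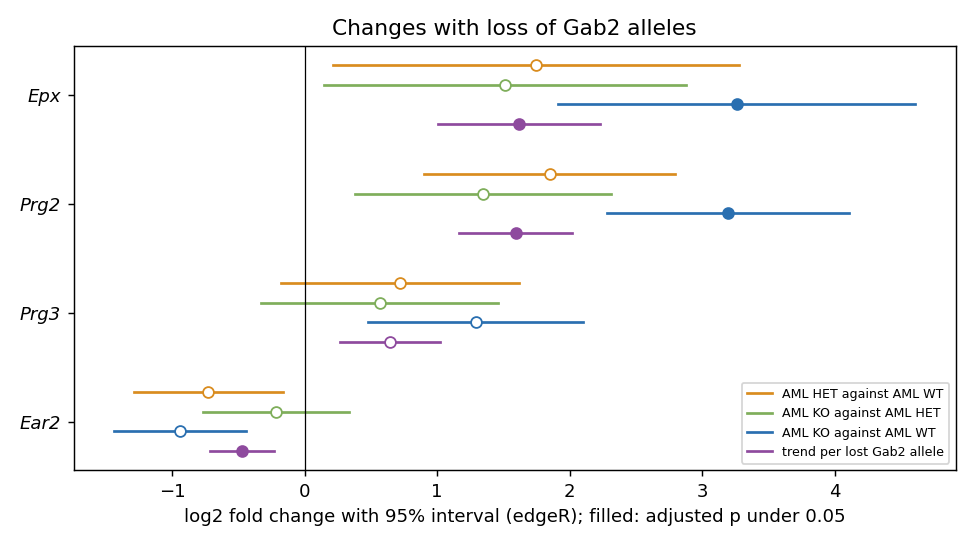
Log2 fold change of the 4 genes between the genotypes and per lost Gab2 allele, with 95% intervals from edgeR; filled points have an adjusted p under 0.05. Epx and Prg2 are filled between AML KO and AML WT and for the trend, Ear2 is filled for the trend only, and all AML HET comparisons are open.

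The loss of 1 allele was compared in AML HET against AML WT mice, and these values share the AML WT mice with those above. None of the 4 genes passed, against 0.0225% of all genes (3 genes), and 3 of them had an unadjusted p under 0.05, against 2.47%. The log2 fold changes were 1.75 for Epx (95% interval 0.21 to 3.28, adjusted p = 0.990), 1.85 for Prg2 (0.90 to 2.79, adjusted p = 0.512), 0.72 for Prg3 (-0.17 to 1.62, adjusted p = 0.990) and -0.73 for Ear2 (-1.29 to -0.16, adjusted p = 0.990). In all 4 genes there was no overlap between AML HET and AML WT mice, against 18.1% of all genes. With DESeq2, Prg2 passed (adjusted p = 0.00588).

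The loss of the second allele was compared in AML KO against AML HET mice. Again none of the 4 genes passed, nor did any other gene (0% of all genes, 5.86% or 780 genes at an unadjusted p under 0.05, 77 genes with DESeq2). The log2 fold changes were 1.51 for Epx, 1.34 for Prg2 (95% interval 0.38 to 2.31), 0.57 for Prg3 and -0.22 for Ear2, with adjusted p of 0.779, 0.735, 0.875 and 0.902. Epx, Prg2 and Prg3 were higher in every AML KO mouse than in either AML HET mouse, and Ear2 overlapped, where 24.2% of all genes did not overlap in either direction.

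Fitted as a slope over 0, 1 and 2 lost alleles, which uses all 8 mice, 3 of the 4 genes passed, against 2.64% of all genes. Prg2 rose by 1.59 on the log2 scale per lost allele (standard error 0.194, adjusted p = 0.00332), Epx rose by 1.62 (standard error 0.276, adjusted p = 0.0136) and Ear2 fell by 0.47 (standard error 0.109, adjusted p = 0.0497). The slope of Prg3 was 0.64 (adjusted p = 0.0844). The slope of Ear2 lay at the threshold. Its adjusted p was 0.0620 with limma-voom, 0.0579 with upper-quartile normalization and 0.0522 without the erythroid and platelet list genes. With a filter of at least 1 CPM in at least 3 libraries it was 0.0510, and with DESeq2 0.00252. It was 0.0609 to 0.174 in 7 of the 8 fits without 1 mouse, the exception being AML WT replicate 1 (0.0165). Of the 8 fits without 1 mouse, that of Epx was above 0.05 in 1, the fit without AML KO replicate 1 (0.0521).

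The position of the AML HET mice between the other groups was tested against the midpoint of AML WT and AML KO on the log2 scale, a test added after the data were seen. AML HET mice lay 0.12 above the midpoint for Epx (95% interval -1.09 to 1.32), 0.25 above it for Prg2 (-0.58 to 1.08), 0.08 above it for Prg3 (-0.72 to 0.87) and at -0.25 relative to it for Ear2 (-0.76 to 0.25). No interval excluded 0, and 1 of the 13305 genes (0.00752%) passed. These intervals set the size of an unequal effect of the first and the second allele that could be seen with 2 AML HET mice.

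**Figure D4:**
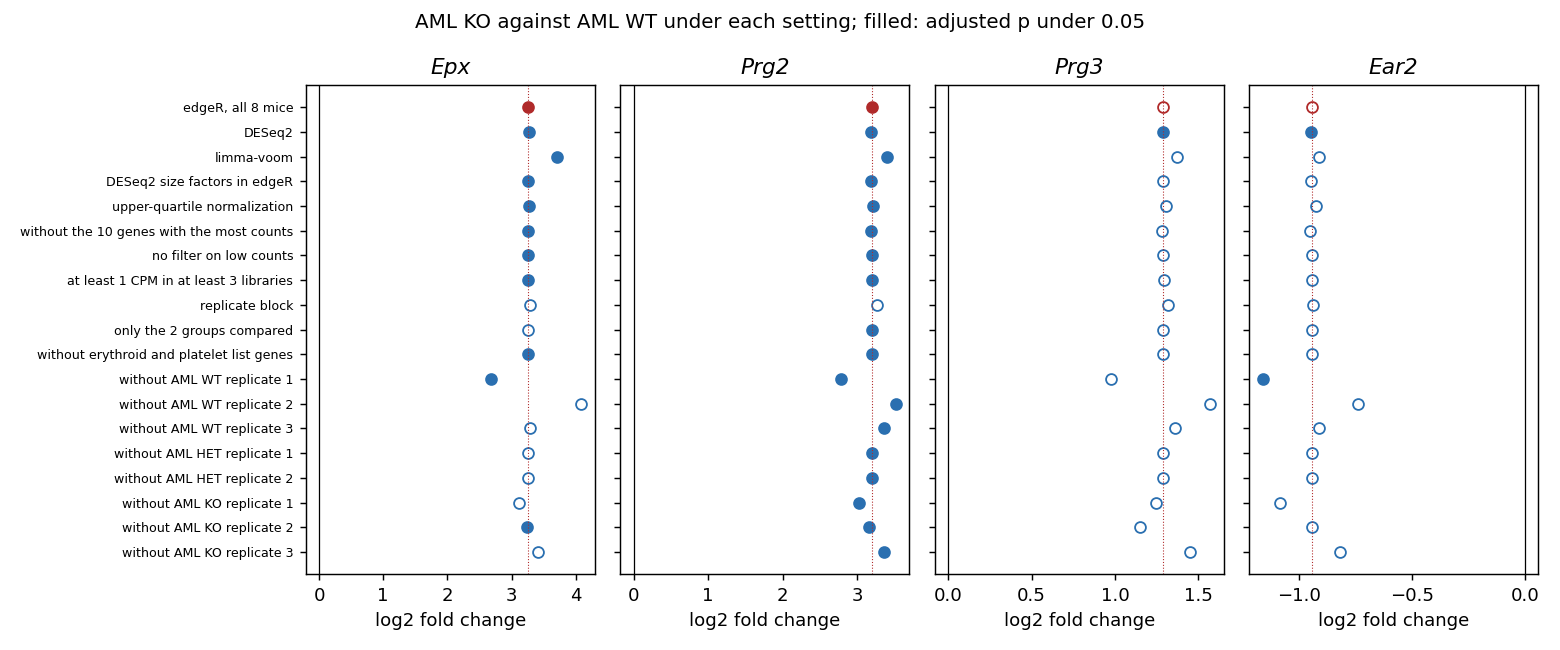
Log2 fold change with loss of both Gab2 alleles (AML KO over AML WT) for each of the 4 genes under each way of processing the counts and without each mouse; filled points have an adjusted p under 0.05, and the dotted line marks the value with all 8 mice. No setting changed the side of 0 on which a gene lay, while points were filled in some settings and open in others for every gene: Prg2 was open with the replicate block only (adjusted p = 0.0649), Prg3 was filled with DESeq2 only, Ear2 was filled with DESeq2 and without AML WT replicate 1, and Epx changed in several settings.

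Compared per length of transcript, the order of the 4 genes was Ear2, Prg2, Prg3 and Epx in AML WT BM. Their levels there were 85.1 ± 24.5, 4.47 ± 2.41, 1.18 ± 0.485 and 0.0677 ± 0.0590 CPM per kb (SD, n = 3), and no 2 neighbours in this order overlapped. In AML KO BM the same order held for the means, with 44.3 ± 8.03 for Ear2, 40.6 ± 9.38 for Prg2, 2.87 ± 0.602 for Prg3 and 0.633 ± 0.130 for Epx. There the ranges of Ear2 and Prg2 over the mice overlapped, while within each of the 3 AML KO libraries Ear2 was the higher (52.5 against 49.2, 43.8 against 41.9 and 36.4 against 30.6 CPM per kb). Ear2 per kb includes any reads that belong to its near-identical copies.

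Across the 8 libraries, log2 CPM of Epx, Prg2 and Prg3 varied together, with Pearson's r of 0.988 between Epx and Prg2, 0.976 between Epx and Prg3 and 0.971 between Prg2 and Prg3. Ear2 varied against them (-0.54 with Epx, -0.61 with Prg2 and -0.44 with Prg3). These points share the group differences, so the deviations from the group means were also correlated, as a description over the same 8 libraries. Pooled over the 3 groups, the deviations of all 6 pairs of genes had a positive r of 0.915 to 0.961, and this includes Ear2, at 0.960 with Epx, 0.931 with Prg2 and 0.915 with Prg3. This did not hold in each group, since of the 2 AML HET mice replicate 2 had the lower Ear2 and Epx level and the higher Prg2 and Prg3 level. In all 4 genes AML WT replicate 1 had the lowest level of the AML WT mice and AML KO replicate 3 the lowest of the AML KO mice. AML WT replicate 1 is also the library with the most counts and the highest Gab2 level, and the part of these in the result was not tested.

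The genes whose log2 CPM over the 8 libraries was most like that of Epx were Zfp212 (r = 0.983), Ripor3 (0.976) and Cables1 (0.975). Those most like Prg2 were Prss34 (0.985), Ripor3 (0.984) and Zfp212 (0.979), and those most like Prg3 were Zfp212 (0.990), Hid1 (0.978) and Akip1 (0.966). Zfp212 is therefore among the nearest genes of all 3, although its own log2 fold change with loss of both alleles was only 0.30 (adjusted p = 0.251). Ripor3 rose from 0.367 to 2.79 CPM (log2 fold change 2.94, adjusted p = 0.00904). Those most like Ear2 were Hepacam2 (0.967), Il1rl1 (0.934) and Aldoc (0.931). These are the highest values over all other genes of the table, each over 8 libraries, and are given as a description.

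The genes that lie around Epx, Prg2 and Prg3 were read from the same fit. Mpo, the myeloperoxidase of neutrophil primary granules, lies 59.587 kb from Epx and had 3019 ± 155 CPM with both Gab2 alleles present, 3029.6 ± 257 in AML HET and 4003 ± 297 in AML KO BM (log2 fold change 0.41, adjusted p = 0.188). Lpo, the lactoperoxidase gene 35.711 kb from Epx, was at 0.673 ± 0.378 CPM in AML WT mice against 0.849 ± 0.455 CPM in AML KO mice (0.33, adjusted p = 0.775), and Mks1, 0.197 kb from Epx, had a log2 fold change of -0.31 (adjusted p = 0.297). Around Prg2 and Prg3, Slc43a3 and P2rx3 had log2 fold changes of -0.14 (adjusted p = 0.538) and 0.34 (adjusted p = 0.546). None of these neighbours passed the threshold (all had an adjusted p of at least 0.188), and of the haem peroxidases with a row (3 of 4 listed) Epx alone did.

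Other members of the ribonuclease family were then read from the same fit. Of 17 listed genes 4 have a row, and none passed between AML KO and AML WT. Rnase12 had 0.597 ± 0.366, 1.13 and 2.68 ± 1.36 CPM in AML WT, AML HET and AML KO BM (log2 fold change 2.18, adjusted p = 0.0670, and 0.0379 for the slope per allele). The slope lost the call in 6 of 8 fits without 1 mouse (up to 0.167, without AML KO replicate 1). Ang, Rnase4 and Rnase2a, the last an eosinophil ribonuclease gene 83.0% identical to Ear2 in its coding sequence, had log2 fold changes of 0.39, 0.07 and -0.03 (adjusted p = 0.362, 0.838 and 0.981).

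Among the surface and receptor genes of eosinophils, 16 of 20 have a row, and 2 were higher and 1 lower in AML KO BM, where 2.09% of all genes were called, with a median log2 fold change of -0.26. Il1rl1, the interleukin-33 receptor, fell from 16.2 ± 4.12 to 5.94 ± 1.06 CPM (log2 fold change -1.45, adjusted p = 0.0208). F2rl2, a protease-activated receptor, rose from 3.08 ± 0.538 to 8.69 ± 2.33 CPM (1.49, adjusted p = 0.0174) and Cd24a, a surface glycoprotein of immature granulocytes and other cells, from 150 ± 7.85 to 234 ± 22.9 CPM (0.64, adjusted p = 0.0244). Leaving out single mice ended the call of Cd24a in 6 of 8 fits (highest adjusted p = 0.126, without AML WT replicate 2), that of F2rl2 in 3 (0.0913, without AML WT replicate 2) and that of Il1rl1 in 2 (0.0963, without AML KO replicate 3). Csf2rb, the common beta chain with which Il5ra signals, and its paralog Csf2rb2 were chosen after their values were seen. Csf2rb had a log2 fold change of -0.32 (adjusted p = 0.267) and Csf2rb2 of -0.44 (adjusted p = 0.270). Siglecf had a log2 fold change of 0.18 (adjusted p = 0.635). Of the 16 genes, 11 had a negative and 5 a positive log2 fold change. At an unadjusted p under 0.05, 11 of the 16 genes, in both directions, were included, against 17.7% of all genes. The summed level of the list was 1812 to 1949 CPM in AML WT, 1779 to 1807 in AML HET and 1554 to 1714 in AML KO mice. The sum thus fell without overlap, unlike the levels of Epx and Prg2, which rose.

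**Figure D5:**
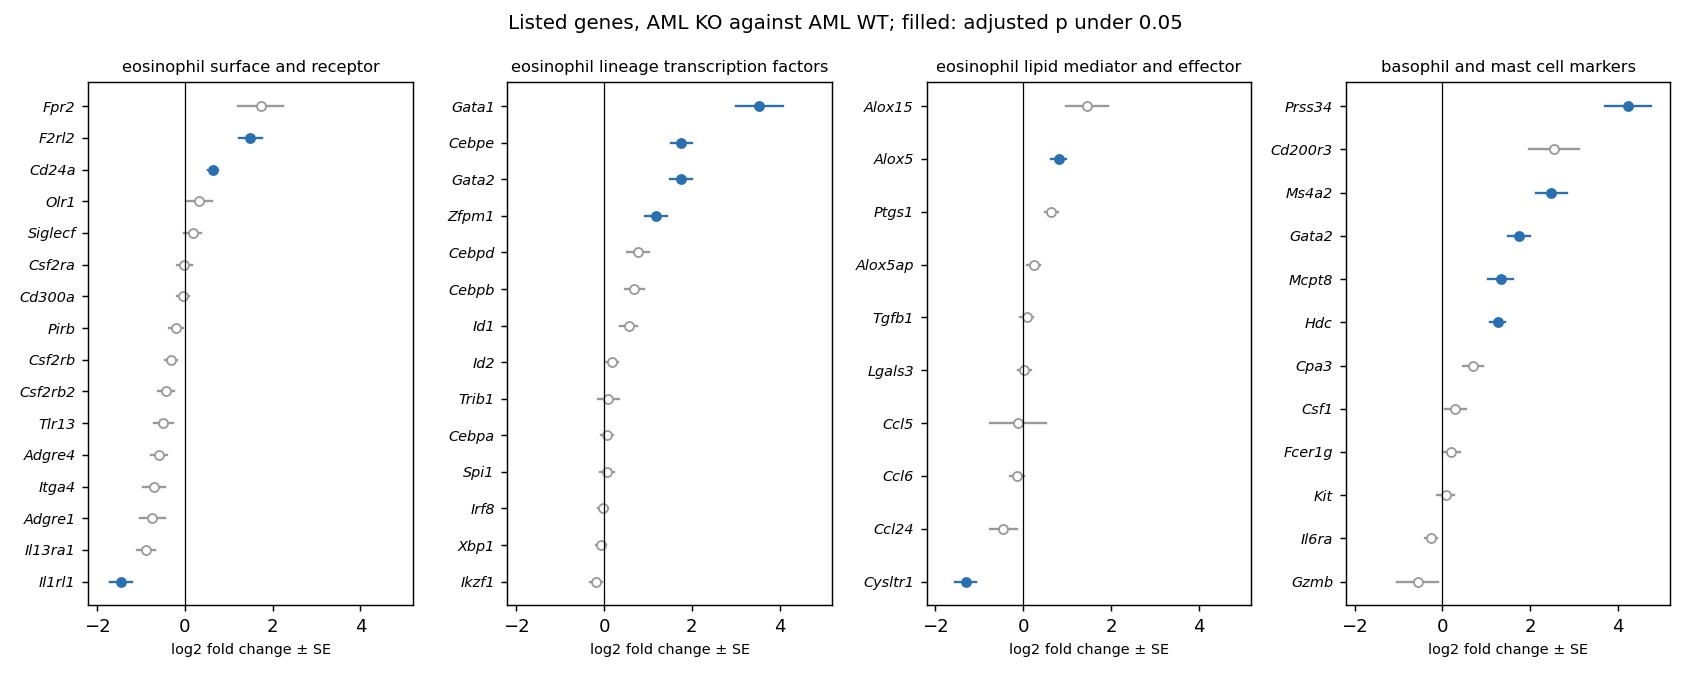
Log2 fold change ± standard error between AML KO and AML WT BM for genes of 4 lists with a row in the table (eosinophil surface and receptor genes, lineage transcription factors, lipid mediator and effector genes, and basophil and mast cell markers); filled points have an adjusted p under 0.05. Surface genes lay on both sides of 0, while the filled points of the transcription factor and basophil panels all lay above 0.

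All 14 listed transcription factors of the lineage have a row, and 4 of them rose while none fell, where 1.77% of all genes were called higher. Of the 14 genes, 11 had a positive and 3 a negative log2 fold change, with a median of 0.37. Gata1 rose from 1.06 ± 0.460 to 12.2 ± 6.09 CPM (log2 fold change 3.54, adjusted p = 0.0127), Gata2 from 9.35 ± 1.23 to 31.6 ± 12.2 CPM (1.76, adjusted p = 0.0102) and Cebpe, which acts late in granulocyte maturation, from 13.9 ± 4.07 to 47.3 ± 8.05 CPM (1.76, adjusted p = 0.00898). Zfpm1, a partner of GATA factors, rose from 8.18 ± 1.57 to 18.5 ± 2.02 CPM (1.18, adjusted p = 0.0457). The early myeloid factors Cebpa, Spi1 and Irf8, chosen after their values were seen, had log2 fold changes of 0.07, 0.06 and -0.02. Without AML WT replicate 2, Gata1 and Gata2 (adjusted p = 0.0579 for each) and Zfpm1 (0.130) lost the call and Cebpe kept it (0.0499), and Zfpm1 lost it in 6 of 8 such fits. Gata1, Gata2 and Zfpm1 also belong to red cell and platelet precursors, and the granulocytes in which Cebpe acts include neutrophils. Markers of all these cells are given further down.

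Of the genes for lipid mediators and effectors, 10 of 14 have a row, with 1 higher, 1 lower and a median log2 fold change of 0.05. Alox5, which encodes 5-lipoxygenase of leukotriene synthesis, rose from 17.1 ± 3.01 to 30.1 ± 4.21 CPM (0.81, adjusted p = 0.0456), and Cysltr1, a receptor of the same mediators, fell from 15.2 ± 1.98 to 6.14 ± 1.49 CPM (-1.31, adjusted p = 0.0237). Alox5 lost the call in 7 of 8 fits without 1 mouse (up to 0.171, without AML WT replicate 2) and Cysltr1 in 4 (up to 0.107, without AML KO replicate 3). Ptgs1 had a log2 fold change of 0.64 (adjusted p = 0.0625). Of the granule biogenesis genes 8 of 9 have a row, and Cd63, a tetraspanin of granule membranes, was the only one to pass, rising from 48.6 ± 11.3 to 126 ± 28.5 CPM (1.38, adjusted p = 0.0122, and 0.0685 without AML WT replicate 2), while Vamp8 and Serpinb2 had log2 fold changes of 0.80 and 2.13 (adjusted p = 0.148 and 0.208).

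Of 18 listed basophil and mast cell markers 12 have a row, and 5 of these rose and none fell, against 2.09% of all genes called and 1.77% called higher. Of the 12 genes, 10 had a positive and 2 a negative log2 fold change, with a median of 0.98. Prss34, a basophil protease, rose from 5.09 ± 3.29 CPM in AML WT over 26.2 in AML HET to 95.4 ± 42.2 in AML KO BM (log2 fold change 4.24, adjusted p = 0.00640). Ms4a2, the beta chain of the IgE receptor, rose by 2.49 on the log2 scale (adjusted p = 0.00988), Hdc, the enzyme of histamine synthesis, by 1.26 (0.00884) and Mcpt8, a basophil protease, by 1.33 (0.0453). The remaining gene that rose is Gata2, which is also counted among the transcription factors above, so the counts of these lists are not separate. Cd200r3 had a log2 fold change of 2.54 (adjusted p = 0.0578) and Cpa3, shared by basophils and mast cells, of 0.69 (adjusted p = 0.191). The summed level of the list was 881 to 930 CPM in AML WT, 940 to 968 in AML HET and 1004 to 1250 in AML KO mice, whereas the alpha chain of the IgE receptor (Fcer1a), the mast cell proteases Cma1, Tpsab1, Tpsb2 and Mcpt4, and Il4 have no row among the genes analysed here. Prg2 is known from basophils too, and the part of basophils in its rise was not tested. Without AML WT replicate 2, Prss34 (adjusted p = 0.0550), Ms4a2 (0.0675), Hdc (0.0628) and Mcpt8 (0.134) lost the call, and Mcpt8 did so in 7 of 8 such fits.

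Markers of monocytes and macrophages, from which Ear2 is also known, gave the following values. None of the 14 monocyte markers passed, 12 of them had a negative log2 fold change, and the median was -0.27. Their summed level was 6413 to 9146 CPM in AML WT, 6272 to 6311 in AML HET and 4600.1 to 7345 in AML KO mice, so AML WT and AML KO mice overlapped. The 3 markers with the smallest p were Ccr2, Cd14 and Cx3cr1 (-0.40, -0.67 and -0.33, adjusted p = 0.215, 0.226 and 0.271). Of 12 macrophage markers with a row, Axl and Mrc1 fell (-1.54 and -0.87, adjusted p = 0.0156 for each) and Vcam1 and Cd5l rose (1.02 and 2.31, adjusted p = 0.0344 and 0.0387). In this list 7 genes had a positive and 5 a negative log2 fold change. Its summed level was 546 to 649 CPM in AML WT, 463 to 469 in AML HET and 333 to 526 in AML KO mice. All AML HET and AML KO mice thus lay below every AML WT mouse, while AML HET and AML KO mice overlapped. Ear2 had this group pattern too. Of all single genes, 22.1% did not overlap between AML KO and AML WT and 18.1% between AML HET and AML WT. Within AML WT the order differed from that of Ear2: replicate 1 had the highest sum (649 CPM) and the lowest Ear2 level (42.3 CPM). The part of monocytes and macrophages in the Ear2 values was not tested.

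Other lineages moved with the genotype as well. Mature neutrophil markers had 9 of 17 genes higher and none lower (median log2 fold change 2.10), with summed levels of 1946 to 5443 CPM in AML WT, 6158 to 6946 in AML HET and 11689 to 18585 in AML KO mice, and the 3 with the smallest p were Chil3, Lcn2 and Cd177 (log2 fold changes 1.28, 2.10 and 1.31). Primary granule markers had 0 of 9 genes past the threshold (5 at an unadjusted p under 0.05, median 0.32), but all 9 had a positive log2 fold change. Their summed level was 5681 to 6312 CPM in AML WT, 5680 to 6270 in AML HET and 7381 to 8787 in AML KO mice. Erythroid markers had 12 of 14 genes higher (median 3.49) and megakaryocyte and platelet markers 10 of 12 (median 2.89), and none of either list was lower. Leaving out the genes of these last 2 lists before normalization left Epx and Prg2 at log2 fold changes of 3.26 and 3.19 (adjusted p = 0.0274 and 0.00839). B cell markers (7 of 8 with a row) and T and NK cell markers (8 of 8) had no gene past the threshold with edgeR, with 0 and 1 gene at an unadjusted p under 0.05. The share of these cell types in the changes of the granule genes was not tested.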

How the data were processed

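RNA of whole BM from 8 AML mice was sequenced on an Illumina HiSeq4000. The authors deposited 1 table of raw counts per gene, without normalization. The submitters' processing notes name Trimmomatic 0.36, STAR 2.5.2b and the build mm10, and the counting tool, its strand setting and its annotation are not given in the sources used here. The table lists 13305 genes, and the smallest sum over the 8 libraries is 106 counts, so that a gene with no row may have had few reads. Of the identifiers, 13266 were matched to GENCODE M21 and 39 were not.

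Counts were normalized with TMM and fitted with the quasi-likelihood test of edgeR 4.0.16 in R 4.3.3 (robust fit, all 8 mice, genotype as the only term), with Benjamini-Hochberg adjustment over all genes and a threshold of 0.05. filterByExpr removed 0 genes. Standard errors were derived from the F statistic. Correlations used log2 CPM with a prior count of 2. CPM per kb used the summed exon length in GENCODE, and Poisson intervals at the 95% level cover counting error only. The test was checked on simulated counts. Libraries of a group differed by more than sampling noise. Prg2 to Prg3 ratios were compared with exact permutation tests.

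The alternatives were DESeq2 1.42.0, voom of limma 3.58.1, other normalizations and filters, the replicate number as a block, only the 2 groups compared, counts without erythroid and platelet list genes, and each mouse left out in turn. The comparison of AML HET with the midpoint was added after seeing the data. The genes and lists were chosen with earlier results of these data known. Besides all members and Gab2, the text takes its genes from the 3 of each list with the smallest p, all genes past the threshold in the eosinophil lists and the 3 genes most like each member, and not every gene of this rule is named. Siglecf, Ccr3, Fcer1a and others named as having no row, Csf2rb, Csf2rb2, Cebpa, Spi1, Irf8, Mcpt8, Cpa3, Cd200r3, Cd5l, Rnase2a and the genes near Epx and Prg2 lie outside this rule and were chosen after their values were seen. Figures were drawn with matplotlib 3.10.9 in Python 3.11.15.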

Additional observations from a re-analysis of the deposited data

How the results depend on the processing

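Each of the 4 granule genes was tested in 4 ways (AML KO against AML WT, AML HET against AML WT, AML KO against AML HET and the slope per allele). Over all alternatives 256 of 284 such values kept their direction and their side of the threshold, 23 lost and 5 gained a call, and 0 changed direction. The 23 losses could come only from tests called in the main edgeR fit, 2 between AML KO and AML WT and 3 for the slope. Most of the 284 values were not called there and had no call to lose. The setting without a filter repeats the main fit, since filterByExpr removed 0 genes. Between AML KO and AML WT, 2 of the 4 genes passed. This count was 4 with DESeq2 and 1 with only the 2 groups compared, and 1 to 3 without single mice (1 without AML WT replicate 2 or 3, either AML HET mouse, or AML KO replicate 1 or 3). Between AML HET and AML WT the count of 0 became 1 with DESeq2. For the slope, the count of 3 became 4 with DESeq2. It became 2 with limma-voom, with upper-quartile normalization and without the erythroid and platelet list genes. With the filter of at least 1 CPM in at least 3 libraries it was also 2. Without single mice it was 1 to 3, the lowest without AML KO replicate 1.

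Over all genes, the 278 calls between AML KO and AML WT became 730 with DESeq2 and 40 (without AML WT replicate 2) to 370 (without AML KO replicate 2) without single mice. The 3 calls between AML HET and AML WT became 59 with DESeq2, 1 with limma-voom, 5 with only the 2 groups compared and 1 to 5 without single mice. The 0 calls between AML KO and AML HET (780 at an unadjusted p under 0.05) became 77 with DESeq2, 3 with only the 2 groups compared and 0 to 4 without single mice. The 351 calls of the slope became 865 with DESeq2 and 137 to 525 without single mice. The cause was not tested.

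Replicate numbers are shared between groups, but no label says that they mark a litter or day. Same-numbered mice correlated at -0.51 to 0.29 in their deviations from the group means, and differently numbered mice at -0.36 to 0.46. The deviations of the 2 AML HET mice mirror each other and the pairs are few. These values therefore cannot show whether the numbers mark a shared litter or day. With the replicate number as a block, 0 of the 4 genes passed between AML KO and AML WT (adjusted p = 0.0649 for Prg2 and 0.134 for Epx, log2 fold changes 3.26 and 3.29) and 1, Prg2, for the slope (0.0243, with 0.0615 for Epx). Over all genes the block gave 19 calls between AML KO and AML WT, 0 between AML HET and AML WT and 125 for the slope. Epx is limited by depth, with 1 to 63 counts per library, and Ear2 by near-identical gene copies.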
